A study of Mus musculus with 91 samples.

Results

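The Hox genes of the mouse were followed through the sorted cells of the fetal gonad. A member was a transcript cluster (the set of probes on the array that reads 1 gene) assigned to a single gene with a symbol of the form Hoxa, Hoxb, Hoxc or Hoxd and a number. There were 37 of them among 19938 genes measured this way, with 10 in the Hoxa cluster and 9 each in the Hoxb, Hoxc and Hoxd clusters. The measurements came from 90 Affymetrix Mouse Gene 1.0 ST arrays of cells sorted by fluorescence from fetal mouse gonads, in 30 groups of 3 arrays. Each group was 1 reporter, XX or XY, at embryonic day (E) 11.5, 12.5 or 13.5, and each array was a separate pool of cells from embryos of 1 or more litters.

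Supporting cells, which become Sertoli cells in the testis and granulosa cells in the ovary, carried Sry-EGFP in XX gonads at all stages and in XY gonads at E11.5, and Sox9-ECFP in XY gonads from E12.5 onward. The interstitial cells of XY and stromal cells of XX gonads formed 1 interstitial/stromal sort, from a cross of CD-1 to a mixed background, which also held fetal Leydig cells of XY gonads. Germ cells carried Oct4-EGFP and, like the Sry-EGFP cells, came from a cross between CD-1 and C57BL/6J mice. The germ cell sorts kept the mesonephros attached, which was removed in most other sorts. Endothelial cells carried Flk1-mCherry on CD-1, and at E11.5 were sorted from gonads with part of the adjoining mesonephros. αSma-EYFP cells, labelled FVB, were a mixed sort that the study describes as holding supporting cells beside interstitial/stromal cells at E11.5. They are grouped with the interstitial/stromal sort below as the mesenchymal sorts. The strains differed between sorts, and reporter and strain background cannot be told apart in any comparison between cell classes. The study crossed males of most lines to CD-1 females, and the strain of the Sox9-ECFP line is not stated here. Sry-EGFP and Sox9-ECFP are different transgenic lines, so reporter and line cannot be told apart wherever cells of these lines are compared. Dissection differed as well for the germ cell sorts and for the endothelial sorts at E11.5. All embryos were otherwise untreated.

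Hox genes encode homeodomain transcription factors that give cells their position along the head to tail axis. They lie in clusters on separate chromosomes, and their order along each chromosome follows the order in which they are switched on, from the anterior group of low paralog number to the posterior group of high number. Mesoderm of the trunk, including that around the gonad and mesonephros, is known to use central and posterior members, and the proteins bind DNA together with cofactors of the Pbx and Meis families. Members are grouped below as anterior (paralogs 1 to 3, 7 members), central (4 to 8, 14 members) and posterior (9 to 13, 16 members).

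The promoters of 4 genes that show the separate patterns described below are printed here. They are Hoxd10 and Hoxc4 for the mesenchymal sorts, Hoxb4 for endothelial cells and Hoxd8 for both. No Hoxa promoter is among them. Each is 300 bases on the plus strand of GRCm38.p6 from the RefSeq table, spanning the annotated start of the gene. Capitals mark CG dinucleotides, the letters at which DNA of Hox promoters can be methylated.
Hoxd10, chr2:74691641-74691940: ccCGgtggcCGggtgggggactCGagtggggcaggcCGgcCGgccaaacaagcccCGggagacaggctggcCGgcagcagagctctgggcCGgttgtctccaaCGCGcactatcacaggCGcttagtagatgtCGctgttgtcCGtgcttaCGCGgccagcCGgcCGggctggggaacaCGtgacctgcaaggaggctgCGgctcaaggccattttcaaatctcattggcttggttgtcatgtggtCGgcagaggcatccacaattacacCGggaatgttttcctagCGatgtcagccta
Hoxd8, chr2:74704365-74704664: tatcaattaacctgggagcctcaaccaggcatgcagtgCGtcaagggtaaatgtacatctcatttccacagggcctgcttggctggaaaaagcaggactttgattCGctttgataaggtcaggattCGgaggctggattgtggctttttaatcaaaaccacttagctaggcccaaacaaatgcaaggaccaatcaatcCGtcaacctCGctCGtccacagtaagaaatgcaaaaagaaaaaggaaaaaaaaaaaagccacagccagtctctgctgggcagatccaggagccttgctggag
Hoxb4, chr11:96318017-96318316: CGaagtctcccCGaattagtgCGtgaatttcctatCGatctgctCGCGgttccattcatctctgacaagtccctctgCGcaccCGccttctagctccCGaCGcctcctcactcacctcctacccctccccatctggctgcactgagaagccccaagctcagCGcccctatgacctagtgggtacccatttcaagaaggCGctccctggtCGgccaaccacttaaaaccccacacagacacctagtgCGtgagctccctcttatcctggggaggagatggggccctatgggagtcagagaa
Hoxc4, chr15:103034145-103034444: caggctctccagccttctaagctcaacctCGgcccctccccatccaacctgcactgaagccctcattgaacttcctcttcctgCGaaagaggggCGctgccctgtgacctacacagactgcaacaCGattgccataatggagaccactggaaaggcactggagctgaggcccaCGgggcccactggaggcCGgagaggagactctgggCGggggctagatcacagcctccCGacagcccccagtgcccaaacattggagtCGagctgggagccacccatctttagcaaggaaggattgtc
These windows hold 22, 6, 14 and 9 CG dinucleotides in the order printed. The table held 24 Hox promoter windows, with a median of 14.5 CG dinucleotides against 7 over all 32851 windows. A composite Pbx and Hox motif, TGATTNAT on either strand, was found in 2 of the 24 (Hoxa2 and Hoxd11), against 3.22% of all windows. The Meis motif TGACAG was in 2 of 24 (Hoxa2 and Hoxa3) against 19.2% of all, and TATAAA in 4 of 24 (Hoxa10, Hoxb8, Hoxd13 and Hoxd4) against 13.6%. The 4 printed promoters hold none of these motifs, which says only that the letters are absent from the windows.

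Levels are log2 intensities, and a value of 6 or more on at least 2 arrays of some group was required for testing. Across the 90 arrays the values of all probes ran from 3.54 to 14.12, and the medians of the arrays from 6.555 to 6.811. Because each transcript cluster has its own probes, levels are compared within a gene and never between genes. Sertoli markers averaged 9.13 to 10.47 in XY supporting groups against 7.32 to 7.54 in XX, endothelial markers 10.11 to 10.57 in Flk1-mCherry groups, germ cell markers 9.94 to 10.49 in Oct4-EGFP groups, and interstitial markers 9.53 to 10.24 in interstitial/stromal groups. Leydig markers averaged 5.66, 8.29 and 10.71 over the stages in XY Flk1-mCherry sorts, against 5.43 to 5.59 in XX, so that the later XY endothelial sorts also carried Leydig transcripts. In sorted pools, a lower share of one cell type and less RNA per cell cannot be told apart.

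Of the 37 members, 29 were tested and 8 were not, because no group had 2 arrays at a log2 level of 6. The 8 are Hoxa11, Hoxa13, Hoxb13, Hoxc11, Hoxc12, Hoxc13, Hoxd12 and Hoxd13, all of the posterior group. Every anterior and central member passed. Between 19 and 22 members reached 6 in a supporting group, 24 to 27 in an interstitial/stromal group, 24 or 25 in an αSma-EYFP group, 23 to 27 in a Flk1-mCherry group and 18 to 21 in an Oct4-EGFP group. In 17 members the level was at or above 6 in every group. The range of the 30 group means was at least 1 on the log2 scale in 18 members, at least 2 in 9, and under 0.5 in 9, beside a typical SD between the 3 arrays of a group of 0.1065 (median over members).

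**Figure D1:**
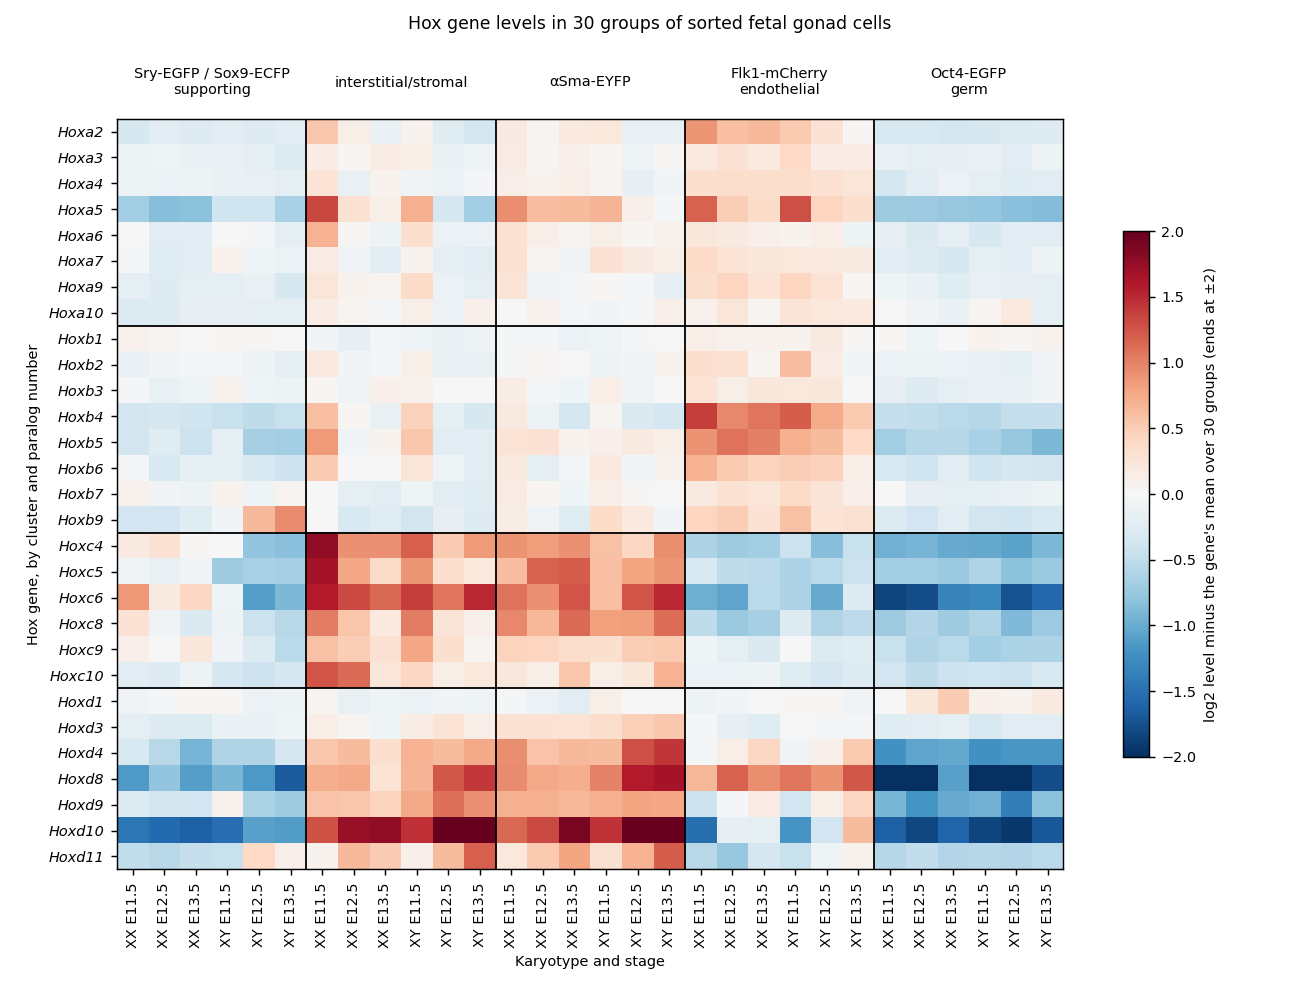
Level of each of the 29 tested Hox genes in the 30 groups, as the log2 level minus that gene's mean over the groups, with genes in rows by cluster and paralog number and groups in columns by reporter, karyotype and stage. Hoxc and Hoxd members are red in the interstitial/stromal and αSma-EYFP columns, Hoxa and Hoxb members in the Flk1-mCherry columns, and most members are blue in the Oct4-EGFP columns; the colour scale ends at 2 either way.

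Most Hoxa and Hoxb members were highest in endothelial cells, and most Hoxc and Hoxd members in the mesenchymal sorts. The sort with the highest mean level was Flk1-mCherry for 7 of the 8 Hoxa members that reached 6 and for all 8 such Hoxb members. It was the interstitial/stromal or the αSma-EYFP sort for all 6 Hoxc members and for 6 of the 7 Hoxd members, the exception being Hoxd1, which was highest in germ cells. These means are over both sexes and all stages, and the highest single group could lie in another sort. For Hoxb9 it was XY supporting cells at E13.5 (7.64), and for Hoxa5 XX stroma at E11.5 (7.96). Each of the supporting, interstitial/stromal, germ and endothelial lineages was then compared with the mean of the other 3 lineages at the same sex and stage, averaged over the 6 combinations. These comparisons used limma across 16859 transcript clusters with Benjamini-Hochberg adjustment, and an adjusted p under 0.05 counts as called. The filter keeps genes for the group in which they are high, so the counts below describe the 29 tested members and not all 37.

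In interstitial/stromal cells 18 of the 29 were higher and 4 lower. The 18 compare with 25.7% of all tested clusters called higher and the 4 with 45.2% called lower, while 70.9% were called in either direction. The median difference was 0.20 over the members and -0.07 over all clusters. By cluster, all 6 Hoxc members were higher (median 1.12), as were 6 of 7 Hoxd members (median 1.10) against 4 of 8 Hoxa members (median 0.07) and 2 of 8 Hoxb members (median 0.01). The lower calls were Hoxb9 (-0.27), Hoxb7 (-0.19), Hoxb1 (-0.14) and Hoxd1 (-0.11).

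Hoxd10, a posterior gene known for specifying lumbar motor neurons and limb pattern, had the widest range of all members, with group means from 6.21 to 10.70. Its level ran from 9.15 to 10.89 over the 18 interstitial/stromal arrays (median 9.95) and from 8.95 to 10.78 over the αSma-EYFP arrays (median 9.81). It ran from 6.27 to 7.29 in supporting cells (median 6.73), 5.99 to 6.91 in germ cells (median 6.38) and 6.35 to 9.31 in endothelial cells (median 7.80). The interstitial/stromal arrays lay above all supporting and germ cell arrays, and overlapped the endothelial arrays through 1 XY array at E13.5. Hoxd10 was 3.05 ± 0.08 (SE) higher in interstitial/stromal cells, set against the mean of the other 3 lineages (limma adjusted p = 2.4e-44).

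Hoxd8, a trunk mesoderm member, was high in both the mesenchymal and the endothelial sorts. It ran from 7.50 to 9.17 in interstitial/stromal cells (median 8.39), 8.23 to 9.51 in αSma-EYFP cells (median 8.62) and 8.11 to 9.03 in endothelial cells (median 8.52). In supporting cells it ran from 5.84 to 6.99 (median 6.49) and in germ cells from 5.32 to 6.59 (median 5.57). The first 3 sorts did not overlap the last 2 on any array. The difference from the other lineages was 1.5 in interstitial/stromal cells (adjusted p = 6.7e-32) and 1.70 in endothelial cells (adjusted p = 2.8e-35).

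Hoxc6, a gene of thoracic identity, ran from 8.46 to 9.83 in interstitial/stromal cells (median 9.10), 8.10 to 9.33 in αSma-EYFP cells (median 8.89) and 6.17 to 8.90 in supporting cells (median 7.88). It ran from 6.24 to 8.10 in endothelial cells (median 6.92) and from 5.67 to 6.71 in germ cells (median 6.08). Interstitial/stromal cells lay above all endothelial and germ cell arrays and overlapped the supporting cells, whose spread is taken up below with the XX and XY comparison. Hoxc6 was 2.15 ± 0.10 (SE) higher in interstitial/stromal cells (adjusted p = 2e-29). Hoxc4, a gene of neck and upper trunk in the same cluster, was 1.62 higher (limma adjusted p = 1.4e-30). Its interstitial/stromal arrays, at 6.86 to 8.51, lay above every endothelial array (5.61 to 6.45) and germ cell array (5.37 to 5.81). Supporting arrays, at 5.57 to 7.30, overlapped the interstitial/stromal ones. Hoxc5 was 1.23 higher (adjusted p = 1.3e-27) and Hoxd9 was 1.21 higher (adjusted p = 2.1e-31). Hoxc5 is called with the members of its own cluster here, and neighbouring Hoxc genes can share transcripts, so their probes may read the same RNA; this was not tested.

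**Figure D2:**
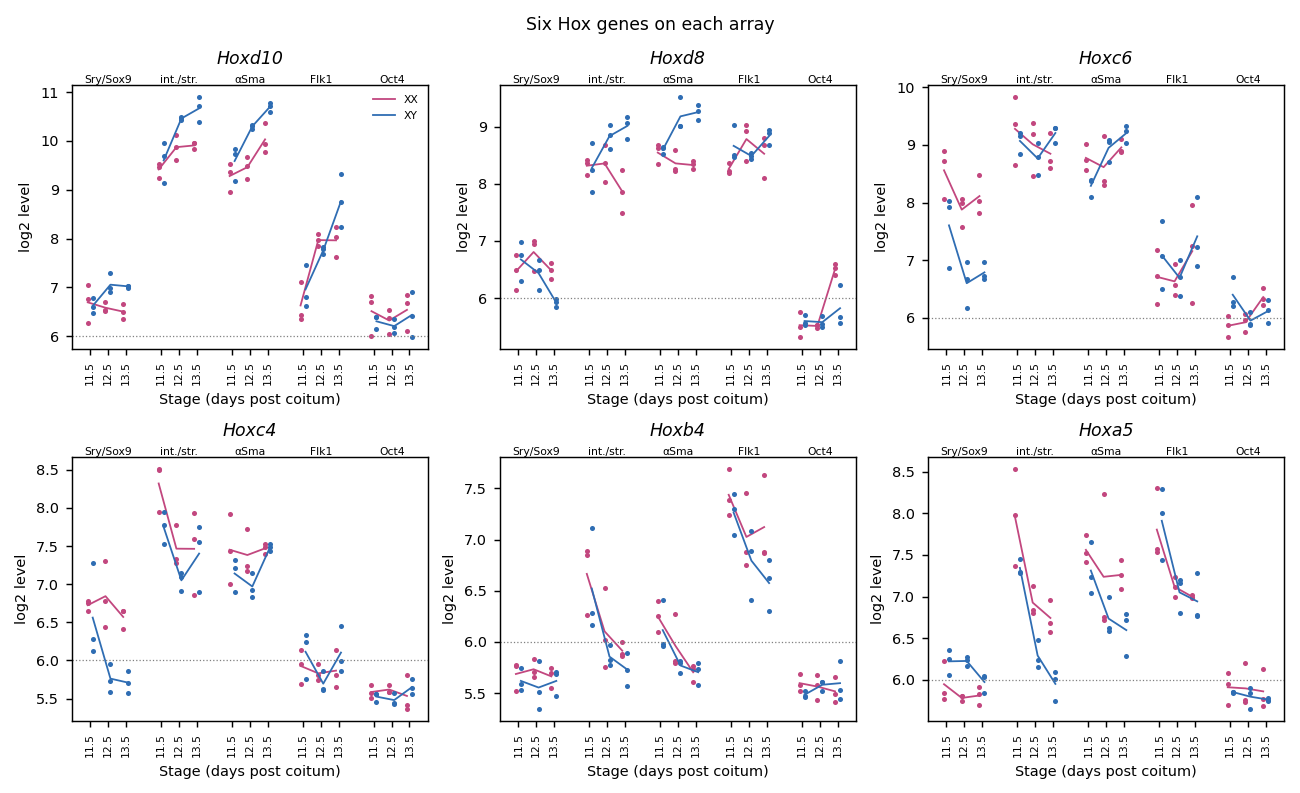
Log2 level of Hoxd10, Hoxd8, Hoxc6, Hoxc4, Hoxb4 and Hoxa5 on each of the 90 arrays, by sort (int./str. for interstitial/stromal) and stage in days post coitum, with XX arrays in pink, XY arrays in blue and lines through the means of 3 arrays; the dotted line is a log2 level of 6. Hoxd10, Hoxc6 and Hoxc4 stand highest in the interstitial/stromal and αSma-EYFP cells, Hoxb4 in the Flk1-mCherry cells, and Hoxd8 in all of these and low in Oct4-EGFP cells.

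In endothelial cells 19 of 29 members were higher and 5 lower, against 34.8% and 38.3% of all clusters and 73.1% in either direction. The median difference was 0.24 over the members and -0.00 over all clusters. All 8 Hoxa and all 8 Hoxb members were higher, none of the 6 Hoxc members was, and of the 7 Hoxd members Hoxd4, Hoxd8 and Hoxd9 were. The Hoxa differences ran from 0.18 (Hoxa6) to 1.07 (Hoxa5), and the Hoxb differences from 0.12 (Hoxb1) to 1.26 (Hoxb4). Hoxc4, Hoxc5, Hoxc6, Hoxc8 and Hoxd11 were lower, with differences of -0.58, -0.36, -0.63, -0.42 and -0.26. These are differences from the mean of the other lineages. All of these members still averaged higher in endothelial than in germ cells, such as Hoxc6 at 6.95 against 6.10 and Hoxc8 at 6.46 against 6.31.

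Hoxb4, known in blood stem cells, stood apart most clearly among the Hoxb members. It ran from 6.30 to 7.69 over the endothelial arrays (median 6.97), 5.35 to 5.84 over the supporting arrays and 5.41 to 5.82 over the germ cell arrays. Interstitial/stromal arrays ran from 5.57 to 7.11 (median 5.98), so that only some of them fell within the endothelial range, and αSma-EYFP arrays from 5.58 to 6.41, which also overlapped it. Hoxb4 was 1.26 higher in endothelial cells than in the other lineages (limma adjusted p = 1.2e-28). Hoxb5, a known activator of Flk1 in endothelial precursors, was 1.11 higher (adjusted p = 7.1e-28), with endothelial arrays at 7.81 to 9.05, germ cell arrays at 6.61 to 7.29 and supporting arrays at 6.57 to 7.74. The interstitial/stromal arrays, at 7.20 to 8.86, and the αSma-EYFP arrays, at 7.56 to 8.08, overlapped the endothelial ones. Hoxb5 had the widest range of group means of its cluster, from 6.74 to 8.73.

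Among Hoxa members Hoxa5, a regulator of lung and axial skeleton, had the widest range, with group means from 5.76 to 7.96. Its endothelial arrays ran from 6.77 to 8.31 (median 7.18), above all supporting arrays (5.70 to 6.36) and germ cell arrays (5.65 to 6.20), while interstitial/stromal arrays ran from 5.75 to 8.53 and αSma-EYFP arrays from 6.29 to 8.23, both overlapping it. It was 1.07 higher in endothelial cells (adjusted p = 6.8e-21). Hoxa2, which patterns the second branchial arch, was 0.68 higher, with endothelial arrays at 5.56 to 6.71 (median 6.19) against 5.29 to 5.54 in supporting cells and 5.27 to 5.42 in germ cells. The interstitial/stromal arrays (5.19 to 6.56) and αSma-EYFP arrays (5.39 to 6.14) overlapped them. Macrophage markers (7.15 to 7.69) and red blood cell markers (8.33 to 9.45) were also highest in the Flk1-mCherry groups. Their part in these levels was not tested.

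In germ cells 26 of 29 members were lower and 1 was higher, against 40.6% and 36.8% of all clusters and 77.4% in either direction. The median was -0.43 over the members and -0.02 over all clusters. All 14 central members were lower (median -0.69). The greatest differences were in Hoxd8 (-2.07, limma adjusted p = 1.2e-40), Hoxc6 (-1.75), Hoxd10 (-1.75), Hoxd4 (-1.21) and Hoxd9 (-1.15). The 1 member higher in germ cells was Hoxd1, an anterior gene with a known role in sensory neuron wiring. Hoxd1 ran from 5.67 to 6.42 in germ cells (median 5.91) and its medians in the other sorts were 5.67 to 5.70, a difference of 0.24 (adjusted p = 7.2e-10) that lay near the log2 level of 6 used for testing.

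In supporting cells 21 of 29 were lower and 2 higher, against 32.3% and 34.1% of all clusters and 66.4% in either direction, with a median of -0.16 over the members and 0.02 over all clusters. All 8 Hoxa members were lower, 5 of 8 Hoxb, 2 of 6 Hoxc and 6 of 7 Hoxd members. The greatest differences were in Hoxd10 (-1.27, limma adjusted p = 4e-24), Hoxd8 (-1.13), Hoxa5 (-0.68), Hoxb4 (-0.60) and Hoxb5 (-0.52). Hoxc6 was called higher by 0.23 (adjusted p = 0.038) and Hoxb9 by 0.14 (adjusted p = 0.01). Both are averages over XX and XY groups that differed in level. The Hoxc6 call was lost in 10 of 72 fits that left out 1 array, and that of Hoxb9 in 1, without E13.5 XY Sox9-ECFP array 1 (adjusted p = 0.052).

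**Figure D3:**
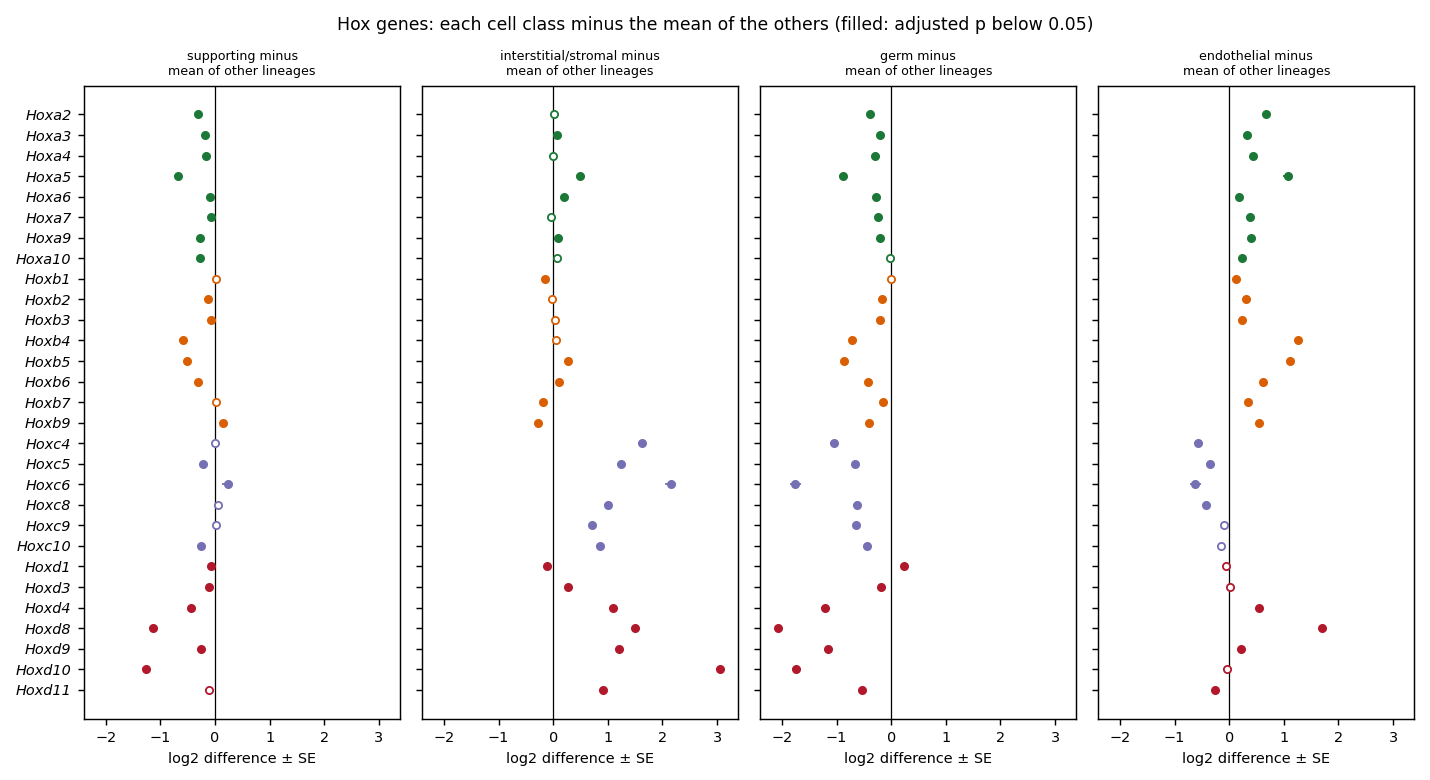
Log2 difference of each lineage from the mean of the other 3, with its SE, for the 29 tested Hox genes in order of cluster and paralog number; filled points have an adjusted p below 0.05. In interstitial/stromal cells the Hoxc and Hoxd members reach from 0.71 upward in all but Hoxd1 and Hoxd3, in endothelial cells the Hoxa and Hoxb members lie to the right and 4 filled Hoxc points to the left of 0, and in germ cells 26 filled points lie to the left.

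By paralog number, in interstitial/stromal cells 2 of 7 anterior, 10 of 14 central and 6 of 8 tested posterior members were higher. In endothelial cells 5 of 7, 10 of 14 and 4 of 8 were. As a description over the 30 group means, which share arrays and reporters, pairs of members from the same cluster had a median correlation of 0.787 (92 pairs), pairs with the same paralog number in different clusters 0.364 (28 pairs), and all pairs from different clusters 0.314 (314 pairs). The Hoxa with Hoxb pairs had a median of 0.722 and the Hoxc with Hoxd pairs 0.717, against 0.055 for Hoxb with Hoxc and 0.106 for Hoxb with Hoxd. The members most like Hoxd10 were Hoxd9 (0.924), Hoxd4 (0.914) and Hoxd11 (0.887), and the one most like Hoxc6 was Hoxc4 (0.958).

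Set directly against interstitial/stromal cells of the same sex and stage, supporting cells had lower Hox levels in every combination. In XX gonads 23, 16 and 9 of 29 members were lower at the 3 stages in turn, against 15%, 9.67% and 6.27% of all clusters called lower and 29.5%, 19.5% and 14.4% called in either direction. In XY gonads 19, 11 and 13 were lower, against 14.4%, 11.2% and 13.1% called lower and 29.7%, 26.3% and 29.6% in either direction. Hoxd10 was the most different member throughout, by -2.72 to -3.41 in XX cells (-3.29 at E12.5) and -2.98 to -3.65 in XY cells (-3.40 at E12.5), and Hoxd8 was among the 3 most different members in all 6 combinations, reaching -3.09 in XY cells at E13.5 (limma adjusted p = 6.5e-22). In XX cells Hoxd8 differed by -1.85, -1.55 and -1.38 over the stages, and in XY cells at the first 2 stages by -1.60 and -2.39. The remaining one of the 3 was in XX cells Hoxa5 at E11.5 (-2.01), Hoxc10 at E12.5 (-1.38) and Hoxd4 at E13.5 (-1.24). In XY cells it was Hoxc5 at E11.5 (-1.58) and Hoxc6 at E12.5 (-2.17) and E13.5 (-2.42). No member was higher in XX supporting cells. In XY supporting cells Hoxb9 was higher at E12.5 (0.81, adjusted p = 8e-06) and E13.5 (1.21, adjusted p = 2.5e-10), and Hoxb7 at E13.5 (0.30, adjusted p = 0.011).

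Between αSma-EYFP and interstitial/stromal cells 18 member differences were called over the 6 combinations of sex and stage, 10.3% of the tests of members against 4.74% of those of all clusters, and 7 of them held in every fit that left out 1 array of the groups. At E13.5 Hoxc8, a gene of thoracic identity, was higher in αSma-EYFP than in interstitial/stromal cells in both sexes. Its XX arrays were 8.13, 8.02 and 8.27 against 7.35, 6.89 and 7.38, a difference of 0.94 (limma adjusted p = 0.001), where 5.66% of clusters were called. Its XY arrays were 8.34, 7.85 and 8.20 against 7.43, 6.77 and 7.14, a difference of 1.01 (adjusted p = 0.00032), where 5.44% were. In neither sex did the arrays overlap. Hoxc5 was lower in αSma-EYFP cells of XX gonads at E11.5 (-1.05, adjusted p = 7e-05, with overlapping arrays; 5.26% of clusters called) and higher at E13.5 (0.83, adjusted p = 0.0026). Hoxd3, an anterior neighbour of Hoxd4, was higher at E13.5 in XX (0.36, adjusted p = 0.012) and in XY cells (0.40, adjusted p = 0.0044). In XY cells at E13.5 Hoxd4 (0.68, adjusted p = 0.022) and Hoxc5 (0.67, adjusted p = 0.018) were higher too, and 3 of the 6 fits without 1 array lost each of them.
Hoxc10 was lower in XX αSma-EYFP cells at E11.5 (-1.04, adjusted p = 0.00073) and at E12.5 (-1.01, adjusted p = 0.002; 3.73% of clusters called), the former resting on 1 XX stromal array at 8.51 without which it was -0.42 (adjusted p = 0.17). Hoxb9 was higher in XY αSma-EYFP cells at E11.5 (0.73, adjusted p = 0.00053; 5.43% called) and Hoxa9 lower (-0.35, adjusted p = 0.036). At E12.5 Hoxd4 (0.66, adjusted p = 0.041) and Hoxa7 (0.36, adjusted p = 0.0076; 2.93% called) were higher in XY αSma-EYFP cells. Hoxc4 was lower in XX αSma-EYFP cells at E11.5 (-0.87, adjusted p = 0.0073). Of the 6 fits without 1 array, 5 lost Hoxa9, 5 lost Hoxd4, 3 lost Hoxc4 and 2 lost Hoxa7. At E11.5 the Sertoli markers averaged 7.79 in XY αSma-EYFP, 7.89 in XY interstitial and 9.13 in XY supporting cells, and 4 of 7 endothelial markers were lower in αSma-EYFP cells of each sex. Their part in these differences was not tested.

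XX and XY cells were compared within each reporter class and stage, the question being whether Hox genes take part in the sexual divergence of each lineage. Over the 15 comparisons 35 member differences were called, of which 13 held in every fit that left out 1 array of the 2 groups. These 35 were 8.05% of the 435 tests of members, against 9.51% of the tests of all clusters over the 15 comparisons. Of them 16 lay in supporting, 8 in interstitial/stromal, 5 in αSma-EYFP, 4 in endothelial and 2 in germ cells.

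In supporting cells 2 of 29 members were called at E11.5, 6 at E12.5 and 8 at E13.5, against 10.9%, 32.3% and 30.9% of all clusters. The shares of members called, 6.90%, 20.7% and 27.6%, were below these backgrounds. At E12.5 and E13.5 the XX cells carried Sry-EGFP and the XY cells Sox9-ECFP. Sex, reporter and transgenic line therefore cannot be told apart in the supporting cell differences at these 2 stages. Hoxb9, a gene of thoracic patterning, was higher in XY cells. Its XY arrays were 6.81, 6.64 and 6.49 at E11.5, 7.37, 7.30 and 7.38 at E12.5, and 8.10, 7.36 and 7.46 at E13.5. The XX arrays were 6.38, 6.35 and 6.22, then 6.28, 6.22 and 6.43, then 6.56, 6.50 and 6.32. The sexes did not overlap at any stage, and the difference of XX minus XY was -1.04 at E12.5 (limma adjusted p = 1.6e-08) and -1.18 at E13.5 (adjusted p = 4.4e-10). From E11.5 to E13.5 the difference changed by -0.85 (adjusted p = 0.0017). Hoxb9 rose by 0.70 from E11.5 to E12.5 in XY cells (adjusted p = 0.00014), a step at which the reporter also changed from Sry-EGFP to Sox9-ECFP, and stage and reporter cannot be told apart there.

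Hoxd11, a gene of forearm and kidney patterning, was also higher in XY supporting cells. Its XY arrays were 7.38, 7.70 and 7.45 at E12.5, all above the XX arrays at 6.43, 6.77 and 6.50, a difference of -0.94 (adjusted p = 5.2e-05). At E13.5 the difference was -0.57 (adjusted p = 0.016), and 3 of the 6 fits that left out 1 array lost it. Hoxd11 rose by 0.85 in XY cells from E11.5 to E12.5 (adjusted p = 0.00051), under the same change of reporter.

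Hoxc members went the other way. Hoxc6 arrays in XX supporting cells were 8.06, 7.58 and 8.00 at E12.5 and 8.48, 7.83 and 8.03 at E13.5. In XY cells they were 6.96, 6.17 and 6.67, then 6.96, 6.67 and 6.73. Every XX array was above every XY array, and the difference was 1.28 (adjusted p = 0.00044) and 1.32 (adjusted p = 0.00028). At E11.5 it was 0.96 (adjusted p = 0.025), and 0.58 (adjusted p = 0.34) without XY array 1 at 6.86. Hoxc4 was 1.08 higher in XX cells at E12.5 (adjusted p = 3.9e-05), with XX arrays at 6.44, 7.30 and 6.79 and XY arrays at 5.96, 5.73 and 5.59, below the log2 level of 6. It was 0.86 higher at E13.5 (adjusted p = 0.001). Hoxc5 was 0.49 higher at E12.5 (adjusted p = 0.034), and 4 of the 6 fits without 1 array lost it. At E13.5 Hoxc5 was 0.61 higher (limma adjusted p = 0.0081), a call that held in every fit without 1 array. Hoxc9 was higher by 0.77 in XX supporting cells at E13.5 (limma adjusted p = 0.00026), with arrays at 7.88, 8.35 and 8.04 against 7.16, 7.50 and 7.32. The 3 largest Hoxc differences at E13.5 held in every fit without 1 array. Hoxc4 fell by 0.80 in XY cells from E11.5 to E12.5 (adjusted p = 0.0037), and by 0.44 (adjusted p = 0.15) without E11.5 array 3, which stood at 7.28 where the others were 6.28 and 6.12. Hoxc6 fell by 1.00 (adjusted p = 0.0092) with overlapping arrays, and Hoxd9 by 0.71 (adjusted p = 0.00028). In all, 6 members were called in XY cells over this step, against 23.8% of clusters.
Hoxd4 and Hoxd8 were called at E13.5 only, in opposite directions. Hoxd8 was 0.56 (adjusted p = 0.016), and 2 of the 6 fits without 1 array lost it. Hoxd4 was -0.59 (adjusted p = 0.013), and -0.43 (adjusted p = 0.14) without XY array 2, while Hoxc5 was called at E11.5 with 0.64 (adjusted p = 0.014) and 0.48 (adjusted p = 0.16) without XX array 3. Sertoli markers were higher in XY cells in 5 of 6 at E11.5 and 6 of 6 at the later stages. Fetal Leydig markers were higher in XY cells in 3 of 4 at E13.5. Their part in the Hox differences was not tested.

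**Figure D4:**
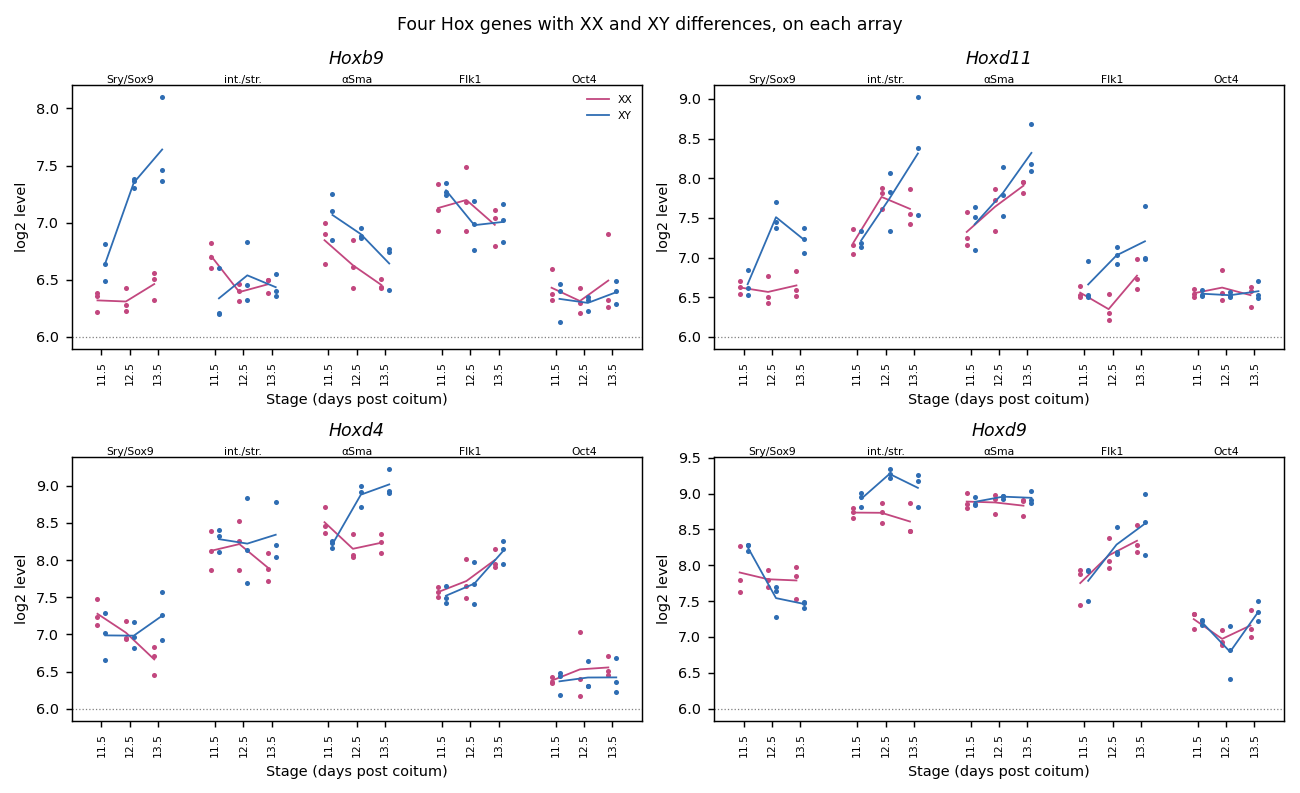
Log2 level of Hoxb9, Hoxd11, Hoxd4 and Hoxd9 on each array by sort (int./str. for interstitial/stromal) and stage in days post coitum, with XX arrays in pink, XY arrays in blue, lines through the means of 3 arrays and a dotted line at a log2 level of 6. Hoxb9 separates the sexes in supporting cells, where XY arrays reach 8.10, and Hoxd4 separates them in αSma-EYFP cells at E12.5 and E13.5. From E12.5 onward the XX and XY supporting cells carry different reporters.

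In interstitial/stromal cells 1, 2 and 5 members were called at the 3 stages in turn, against 0.267%, 6.54% and 9.25% of clusters. At E13.5 the called members were Hoxd8, Hoxd9, Hoxd10 and Hoxd11, lower in XX, and Hoxa5, higher in XX. Hoxd8 arrays were 7.50, 8.23 and 7.86 in XX stroma and 8.79, 9.07 and 9.17 in XY interstitium, without overlap, a difference of -1.15 (limma adjusted p = 3.8e-06) that held in every fit without 1 array. Hoxd10 arrays were 9.95, 9.95 and 9.82 against 10.39, 10.89 and 10.71, a difference of -0.76 (adjusted p = 0.018) that was -0.65 (adjusted p = 0.13) without XY array 2. Hoxd11 differed by -0.70 (adjusted p = 0.0087) with overlapping arrays, and by -0.34 (adjusted p = 0.36) without XY array 3 at 9.02. Hoxa5 arrays were 6.96, 6.69 and 6.58 in XX and 5.75, 6.01 and 6.10 in XY cells, a difference of 0.79 (adjusted p = 0.011) that 2 of 6 such fits lost.
At E12.5 Hoxc10, a lumbar motor neuron gene, was 1.00 higher in XX stroma (adjusted p = 0.00064), with arrays at 7.50, 7.48 and 6.43 against 5.95, 6.23 and 6.24. Hoxd9 was lower there (-0.54, adjusted p = 0.017), a call that 2 of the 6 fits without 1 array lost. At E11.5 the only member called was Hoxc5, at 0.79 (adjusted p = 0.031), and 0.42 (adjusted p = 0.72) without XX array 3 at 8.95. At E13.5, 4 of 4 Leydig and 5 of 6 Sertoli markers were lower in XX interstitial/stromal cells, 5 of 6 pre-granulosa markers higher, and 2 of 5 interstitial markers lower. The Leydig markers averaged 9.89 in the XY and 5.60 to 5.77 on the XX arrays. Their part was not tested.

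In αSma-EYFP cells no member was called at E11.5 (limma; 1 at an unadjusted p under 0.05; 0.249% of clusters called), 3 at E12.5 and 2 at E13.5, against 5.15% and 5.73%. All were Hoxd members lower in XX. Hoxd8 arrays were 8.23, 8.26 and 8.58 in XX against 9.01, 9.01 and 9.51 in XY cells at E12.5, a difference of -0.82 (adjusted p = 0.0019). At E13.5 they were 8.25, 8.34 and 8.39 against 9.11, 9.28 and 9.37, a difference of -0.93 (adjusted p = 0.00029) that held in every fit without 1 array. Hoxd4 differed by -0.73 (adjusted p = 0.0098) and -0.79 (adjusted p = 0.0038; -0.68 with adjusted p = 0.05 without XY array 1), and Hoxd10 by -0.84 at E12.5 (adjusted p = 0.012). Neither overlapped. Leydig markers were lower in XX αSma-EYFP cells in 4 of 4 at E13.5, with a mean of 8.43 in the XY group, and their part was not tested.

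In germ cells no member was called at E11.5 (limma; 0 at an unadjusted p under 0.05; 0.291% of clusters called) or at E12.5 (1 at an unadjusted p under 0.05; 5.36% called). At E13.5 Hoxd8 and Hoxd1 were higher in XX cells, 2 of 29 against 22.7% of clusters. Hoxd8 arrays were 6.59, 6.53 and 6.41 in XX and 6.23, 5.57 and 5.68 in XY cells, a difference of 0.69 (adjusted p = 0.0041) that was 0.56 (adjusted p = 0.051) without XY array 2. The XX arrays at E12.5 had been 5.54, 5.47 and 5.54, so that Hoxd8 rose by 1.00 in XX germ cells from E12.5 to E13.5 (adjusted p = 6.6e-05), a call that held in every fit without 1 array. All 3 XX arrays at E13.5 lay above the log2 level of 6 and above all 6 XX germ cell arrays before. Interstitial markers averaged 6.91 at E12.5 and 6.75 at E13.5 (0 of 5 higher and 1 lower), and endothelial markers 6.59 and 6.42 (0 of 7 higher and 1 lower). The part of other cells in this rise was not tested. Hoxd1 arrays were 6.42, 6.10 and 6.19 in XX against 6.04, 5.67 and 6.03 in XY cells, a difference of 0.32 (adjusted p = 0.0074), and 0.20 (adjusted p = 0.18) in the least favourable fit without 1 array.
From E12.5 to E13.5 2 members were called in XX germ cells, against 12.1% of clusters, the other being Hoxd1 (0.27, adjusted p = 0.048). In XY germ cells Hoxd9 rose by 0.56 (adjusted p = 0.012) and Hoxa10 fell by 0.40 (adjusted p = 0.015), against 7.5% of clusters, and neither held in all fits without 1 array. From E11.5 to E12.5 no member was called in germ cells of either sex (limma; 6.63% and 4.28% of clusters called).

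In endothelial cells no member was called at E11.5 (limma; 6 at an unadjusted p under 0.05; 2.61% of clusters called) and 1 at E12.5, Hoxd11 at -0.68 (adjusted p = 0.023; 4.46% called). Of the 6 fits without 1 array, 4 lost Hoxd11. At E13.5 3 members were called, against 5.97%. Hoxa2 was higher in XX cells, with arrays at 6.56, 6.20 and 6.14 against 5.69, 5.74 and 5.56, a difference of 0.64 (adjusted p = 0.00024) that held in every fit without 1 array. Hoxb5 was 0.60 higher in XX with overlapping arrays (limma adjusted p = 0.015), and 3 of the 6 fits without 1 array lost it. Hoxd10 was lower in XX with overlapping arrays, at -0.80 (adjusted p = 0.017), and at -0.53 (adjusted p = 0.29) without XY array 2. On that XY array Hoxd10 stood at 9.31 and Hoxc6 at 8.10, and the interstitial markers averaged 9.39 against 8.50 and 7.95 on the other 2 arrays. Interstitial markers were lower in XX endothelial cells in 2 of 5, and Leydig markers in 4 of 4. Their part was not tested.

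Successive stages were compared within each reporter class and sex, to follow the Hox genes over the days in which the gonad takes on its sex. In XY supporting cells the first step also went from Sry-EGFP to Sox9-ECFP. Over 20 comparisons 34 member differences were called, 15 of them in interstitial/stromal cells from E11.5 to E12.5, and 8 of the 34 held in every fit without 1 array. The 34 were 5.86% of the tests of members, against 5.13% of those of all clusters.

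In XX interstitial/stromal cells 7 of 29 members (24.1%) fell from E11.5 to E12.5 and none rose, against 1.04% of clusters called lower and 2.24% called in either direction. The median was -0.21 over the members and -0.02 over all clusters. In XY interstitial/stromal cells 7 fell and 1 rose (27.6%), against 1.89% called lower and 3.96% in either direction, with medians of -0.25 and 0.00. Hoxa5 arrays went from 7.99, 7.36 and 8.53 to 7.13, 6.84 and 6.81 in XX stroma, and from 7.29, 7.46 and 7.29 to 6.23, 6.16 and 6.48 in XY interstitium, without overlap in either. It fell by 1.03 in XX (limma adjusted p = 0.0024) and by 1.05 in XY cells (adjusted p = 0.00077). Hoxb5 fell by 0.91 (adjusted p = 0.00025) and 0.76 (adjusted p = 0.0016), from 8.11, 8.50 and 8.86 to 7.90, 7.47 and 7.37 in XX and from 7.96, 8.48 and 8.11 to 7.55, 7.20 and 7.55 in XY cells. In XX cells Hoxc5 fell by 0.90 (adjusted p = 0.0015), and in XY cells Hoxc8 fell by 0.76 (adjusted p = 0.01). The members called lower were 3 Hoxa, 2 Hoxb and 2 Hoxc in XX cells, and 3 Hoxa, 2 Hoxb and 2 Hoxc in XY cells, and no Hoxd.

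Hoxd10 rose over the same step in XY interstitium, from 9.96, 9.70 and 9.15 to 10.46, 10.43 and 10.48, by 0.86 (adjusted p = 0.012) and by 0.63 (adjusted p = 0.22) without E11.5 array 3. In XX stroma its difference was 0.45, which did not pass the test. Without E11.5 XX stromal array 3, 2 of the 7 XX calls were left. In XY cells 4 of 8 were left without E11.5 array 2, and 5 without E11.5 array 3 or E12.5 array 2. Endothelial markers averaged 7.05, 6.56 and 7.54 on the 3 XX arrays at E11.5, the highest being array 3, and 6.64 at E12.5, and 2 of 7 fell. In XY interstitial/stromal cells they were 6.84 and 6.89, and none was called. In XY cells 4 of 4 Leydig and 4 of 6 Sertoli markers rose. The part of other cells in the fall was not tested. From E12.5 to E13.5 the only member called in interstitial/stromal cells was Hoxc10 in XX stroma (-0.89, adjusted p = 0.027, with overlapping arrays; 0.504% of clusters called, and 1.39% in XY).

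**Figure D5:**
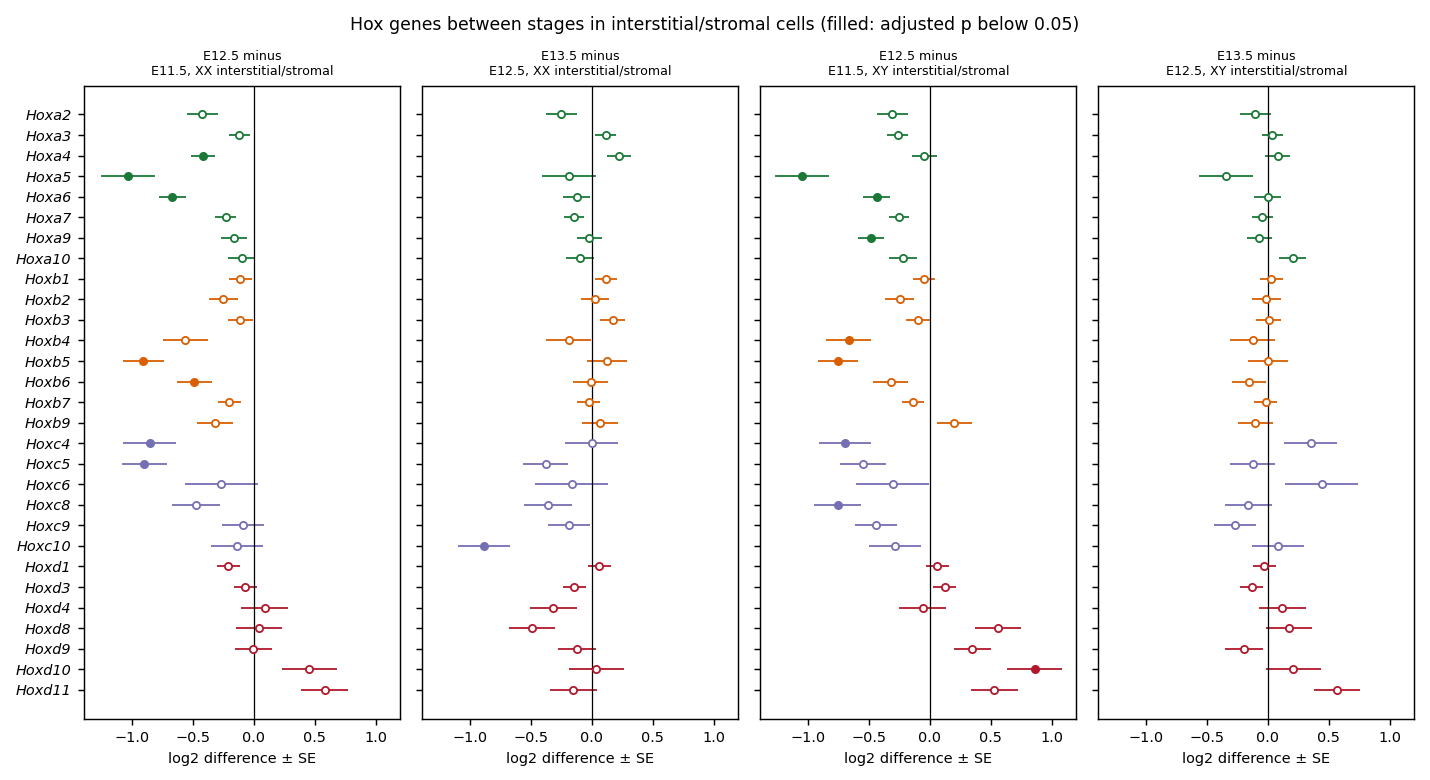
Log2 difference between successive stages in XX and XY interstitial/stromal cells with its SE, for the 29 tested Hox genes in order of cluster and paralog number; filled points have an adjusted p below 0.05. From E11.5 to E12.5 called Hoxa, Hoxb and Hoxc members lie to the left of 0 in both sexes and Hoxd10 lies to the right in XY cells, and from E12.5 to E13.5 1 point is filled.

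Hoxd10 also rose in endothelial cells. Its XX arrays were 6.44, 7.10 and 6.35 at E11.5 and 7.96, 7.84 and 8.10 at E12.5, without overlap, a rise of 1.34 (adjusted p = 3.6e-05) and the 1 call of that comparison (5.41% of clusters called) that held in every fit without 1 array. Its XY arrays were 6.80, 7.46 and 6.61, then 7.78, 7.68 and 7.82, then 8.75, 9.31 and 8.23. They rose by 0.80 (adjusted p = 0.013; 10.9% of clusters called) and by 1.01 (adjusted p = 0.0024; 3.71% called), the latter being 0.73 (adjusted p = 0.092) without E13.5 array 2. In XY endothelial cells Hoxd9 rose by 0.51 (adjusted p = 0.023), and Hoxa5 fell by 0.86 (adjusted p = 0.006), Hoxb2 by 0.47 (adjusted p = 0.004) and Hoxa3 by 0.25 (adjusted p = 0.049) over the first step. Sorts at E11.5 included part of the mesonephros and those at the later stages did not, so that stage and dissection cannot be told apart in the first step. Interstitial markers averaged 7.75 and 7.89 in XX and 7.86 and 8.13 in XY endothelial groups at E11.5 and E12.5. Single markers moved in different directions. Over the stages in XY endothelial groups Pdgfra averaged 6.91, 8.29 and 8.67, and Tcf21 7.08, 7.32 and 8.23. Nr2f2 averaged 9.86, 9.27 and 9.86. From E11.5 to E12.5 in XX groups Tcf21 went from 6.65 to 7.29 and Nr2f2 from 9.82 to 9.46. The part of interstitial cells in the Hoxd10 rise was not tested. In αSma-EYFP cells the only call was Hoxd4 in XY cells from E11.5 to E12.5 (0.67, limma adjusted p = 0.026, with 4.7% of clusters called). Of the 6 fits without 1 array, 5 lost it. In the other steps of these cells 4 and 3 members in XX and 3 in the later XY step had an unadjusted p under 0.05. Those steps gave no call (limma, with 2.23%, 0.291% and 1.13% of clusters called). Nor did XX endothelial cells from E12.5 to E13.5 (limma; 2 at an unadjusted p under 0.05; 0.552% called).
In XX supporting cells no member was called in either step (limma; 3 and 0 at an unadjusted p under 0.05; 7.44% and 1.83% of clusters called), nor in XY supporting cells from E12.5 to E13.5 (2 at an unadjusted p under 0.05; 1.9% called).

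The difference between XX and XY cells was then set at E13.5 against E11.5 in each class. In supporting cells 4 members were called against 14.7% of clusters, and 1 each in interstitial/stromal cells (3.52%), Oct4-EGFP (10.3%) and αSma-EYFP cells (2.12%). None was called in endothelial cells (limma; 3 at an unadjusted p under 0.05; 3.64% of clusters called). The calls for Hoxb9 in supporting cells and for Hoxd8 in interstitial/stromal cells held in every fit without 1 array. The difference in Hoxd8 changed by -1.19 in interstitial/stromal cells (adjusted p = 0.0021), from 8.37, 8.42 and 8.16 in XX and 8.72, 8.24 and 7.86 in XY cells at E11.5, which overlapped, to the separated arrays given above at E13.5.

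The Pbx, Meis and Pknox genes encode the cofactors with which Hox proteins bind DNA. Of 8 Pbx, Meis and Pknox genes tested, 6 were higher and 1 lower in interstitial/stromal cells (median 0.55, against 25.7% of all clusters called higher, 45.2% lower and a median of -0.07), led by Meis1 at 2.42 (limma adjusted p = 7e-33) and Meis2 at 2.19 (adjusted p = 4.5e-40). Pbx4 was the lower one, at -0.09. In germ cells 5 were lower, against 40.6% of clusters, and none higher, with Meis1 at -2.55 and Meis2 at -1.78. In supporting cells 4 were higher and 2 lower, against 34.1% and 32.3% of clusters, with Meis1 at 0.87 and Meis2 at -1.60, and in endothelial cells 1 was higher, Meis2 at 1.19, and 5 lower, against 34.8% and 38.3%. Between the sexes Pbx3 was higher in XX supporting cells at E12.5 (1.27, adjusted p = 3.8e-07) and E13.5 (1.72, adjusted p = 7.6e-11), and in XX stroma at E13.5 (1.25, adjusted p = 2.3e-06). Meis3 was higher in XX supporting cells at E13.5 (1.22, adjusted p = 4.2e-12). In these supporting cell comparisons the reporter differed between the sexes as well.

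Of 7 tested genes that regulate Hox expression, 3 were higher and 2 lower in germ cells, against 36.8% and 40.6% of clusters, with Gmnn, a replication licensing inhibitor, at 1.59 and Nr6a1, a nuclear receptor that sets the trunk to tail transition, at 1.58, and Egr2 at -2.0 and Gdf11 at -0.40. Egr2, which switches on Hox genes in the hindbrain, was 1.93 higher in interstitial/stromal cells. Of 13 Polycomb, Trithorax and related chromatin genes, 10 were higher and 3 lower in germ cells, led by Phc1 at 1.35 and Eed at 1.04, against 36.8% of all clusters called higher there. In endothelial cells 3 were higher and 9 lower, against 34.8% and 38.3% of clusters, and in supporting cells 1 and 7, against 34.1% and 32.3%. Of 5 other transcripts of the Hox clusters that were tested, Hoxd3os1, an RNA transcribed opposite to Hoxd3, went with the Hoxd genes: its difference was 1.33 in interstitial/stromal cells (adjusted p = 9.5e-30), -0.96 in germ cells and -0.61 in supporting cells.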

How the data were processed

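Cells were sorted by fluorescence and their RNA was hybridised to Affymetrix Mouse Gene 1.0 ST arrays. The authors normalised the arrays by RMA in Partek, with probes adjusted for GC content and sequence. The table the authors deposited holds log2 intensities of 91 arrays over 35557 transcript clusters. The methods describe a run on all 91 arrays and another on 72 of them, without the αSma-EYFP and whole-mouse arrays, and which of them gave each deposited value is not given in the sources used here. The submitters' processing notes name GCOS and Partek. Gene names came from the platform annotation, in which 21789 clusters had 1 gene, 1621 several and 12147 none, and each of the 37 members had a single cluster. Probe sequences were not used, so signal that paralogs or overlapping transcripts share cannot be told apart.

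The 90 sorted-cell arrays were fitted in 1 model with a mean per group in limma 3.58.1 (R 4.3.3, 60 residual degrees of freedom), without covariates, and p-values were adjusted by Benjamini-Hochberg over the 16859 clusters with a log2 value of 6 or more on at least 2 arrays of a group. An adjusted p under 0.05 was called. The newborn whole-mouse array was left out. The reporter of the interstitial/stromal sort is not reported here. The precision is limited by the 3 arrays per group. On data simulated for XX against XY interstitial/stromal cells at E13.5, with 100 clusters changed at each size among 16859, 71% of changes of 1.5-fold and 97% of 2-fold were recovered, with 12 false calls. Same-numbered XX and XY arrays had correlated deviations (over 0.1 in all 3 pairs) in germ cells at E12.5 alone (0.13, 0.14 and 0.21), where no member was called with or without the block. In every other class and stage at least 1 pair was lower, though others reached 0.36.

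Members, gene lists and markers were chosen with earlier results of these data known. Values are given for up to 5 members in each direction per lineage comparison and up to 3 in each other comparison by size of the called difference, for members called in the comparison of stages between sexes, for the member of widest range per cluster, and for some of the up to 2 list genes per direction that the same order gives. A few further called members are given beside these. Alternatives tried were quantile normalisation again, centring each array on its median, no filter, a filter at log2 7, leaving out αSma-EYFP arrays, a 1.5-fold threshold with and without adjustment, trend with robust eBayes, array weights, the replicate block, and each array left out in turn. Figures and summaries used Python 3.11.15, pandas 2.3.3 and matplotlib 3.10.9.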

Additional observations from a re-analysis of the deposited data

Results flagged for a closer look

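For 7 members the difference between XX and XY cells changed from E11.5 to E13.5 (limma interaction, adjusted over all clusters). In supporting cells it changed by -0.85 for Hoxb9 (adjusted p = 0.0017), -0.88 for Hoxd4 (adjusted p = 0.018), 0.77 for Hoxd8 (adjusted p = 0.038) and 0.68 for Hoxd9 (adjusted p = 0.023). In interstitial/stromal cells it changed by -1.19 for Hoxd8 (adjusted p = 0.0021), in germ cells by 0.42 for Hoxd1 (adjusted p = 0.031), and in αSma-EYFP cells by -1.08 for Hoxd4 (adjusted p = 0.012). Of the 12 fits that left out 1 array each, none lost the call for Hoxb9 or for Hoxd8 in interstitial/stromal cells, while 4 lost Hoxd4 and 8 lost Hoxd8 in supporting cells, 5 lost Hoxd9, 6 lost Hoxd1 and 2 lost Hoxd4 in αSma-EYFP cells. XY supporting cells changed reporter between these stages, and stage and reporter cannot be told apart there.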

How the results depend on the processing

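Over all comparisons of a kind, 35 member differences were called between XX and XY cells, 34 between stages, 96 between lineages, 94 between supporting and interstitial/stromal cells, 18 between αSma-EYFP and interstitial/stromal cells and 7 in the comparison of E13.5 with E11.5, and 281 differences of cofactor and regulator genes. Under a threshold of 1.5-fold with an unadjusted p under 0.05 there were 34 between lineages, 13 in the comparison of E13.5 with E11.5 and 152 in the cofactor lists. With an adjusted p and a fold over 1.5 there were 34, 11 between αSma-EYFP and interstitial/stromal cells, and 132 in the cofactor lists. Array weights gave 59 between stages, 32 between αSma-EYFP and interstitial/stromal cells and 15 in the comparison of E13.5 with E11.5. The cause was not tested, beyond the fold threshold itself. The other settings kept all these counts within 1.5 times. Leaving out 1 array at a time gave 32 to 37 between XX and XY cells, 29 to 38 between stages, 93 to 98 between lineages, 89 to 95 between supporting and interstitial/stromal cells, 15 to 19 between αSma-EYFP and interstitial/stromal cells, and 4 to 9 in the comparison of E13.5 with E11.5. Of 130 named differences, 77 held in every fit without 1 array. None reversed under an alternative that tested it, which was 120 of them with the filter at log2 7, 109 without the αSma-EYFP arrays, 129 after quantile normalisation again and all 130 under the others.

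The replicate numbers pair no samples in the labels, and with the replicate number as a block the counts were 39, 36, 96, 93, 18, 7 and 275 in the same order. The alternative of using the lowest-mean transcript cluster per gene was not run, because each Hox gene had a single one. Signal near or below the log2 level of 6 limits the calls for members in the sorts where they are dim, among them Hoxd1, Hoxc10, Hoxa2, Hoxb4 and Hoxc4. The same holds for Hoxd8 in germ cells (median 5.57) and Hoxa5 in germ and supporting cells (5.81 and 5.98). It also holds for Hoxc5 in germ and XY supporting cells (5.83 and 5.87), and for Hoxa3 and Hoxa10 in most sorts.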

Other observations

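On the 1 array of a whole newborn mouse, which enters no comparison, 24 of the 37 members reached a log2 level of 6, and none of the 8 members that no sorted group brought to that level did.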
